A study of Mus musculus with 12 samples.

Results

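The Fc and CD300 receptors described here are 10 genes, Fcgr1, Fcgr2b, Fcgr3, Fcgr4, Fcer1g, Fcrls, Cd300a, Cd300lb, Cd300lf and Cd300ld. They were taken by symbol from the 16699 genes listed both without stimulation and after LPS, and all 10 were found. The set was chosen on the measured counts of Cd300lb and Fcrls, which are lower in ACAT1 KO cells. Differences between genotypes are therefore given as a description, with no p for any of the 10 genes, and counts of them past a threshold in that contrast support nothing. The responses to LPS did not enter the choice and were tested, although those of Cd300lb and Fcrls rest on the same counts as the choice.

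The cells were J774A.1, a mouse macrophage line, either WT (transfected with the vector alone) or ACAT1 KO (CRISPR-Cas9 with a guide to Acat1). ACAT1 is the mitochondrial acetyl-CoA acetyltransferase. RNA was sequenced from 3 lines of each genotype without treatment and after 2 hours with 100 ng/ml lipopolysaccharide (LPS), a bacterial ligand of TLR4, which gave 12 libraries in 4 groups of 3. According to the study's methods the lines were expanded from sorted wells that each received a few cells, so that differences between the lines of a genotype can include clonal ones.

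Fc gamma receptors bind the constant part of IgG and couple antibody-coated targets to phagocytosis and cytokine release. Fcgr1, Fcgr3 and Fcgr4 are activating and signal through the common gamma chain, encoded by Fcer1g, whose cytoplasmic ITAM motif recruits the kinase Syk. Fcgr2b is the inhibitory IgG receptor and recruits the lipid phosphatase encoded by Inpp5d. CD300 receptors sense lipids such as phosphatidylserine on dying cells. Cd300a and Cd300lf carry inhibitory motifs, whereas Cd300lb and Cd300ld pair with activating adaptors.

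The genes lay in 4 places of the mouse genome (GRCm38). Fcgr2b (chr1:170958617-170976547), Fcgr4 (chr1:171018920-171029761), Fcgr3 (chr1:171051174-171064935) and Fcer1g (chr1:171229572-171234365) sat within 275.7 kb of chromosome 1. Fcrls (chr3:87250758-87263738) and Fcgr1 (chr3:96282909-96293969) were apart on chromosome 3. Cd300a (chr11:114890041-114904654), Cd300lb (chr11:114922781-114934386), Cd300ld (chr11:114982274-114989922) and Cd300lf (chr11:115116214-115133992) spanned 244.0 kb of chromosome 11. All were on the minus strand except Fcgr4 and Cd300a. Related sequence limits some counts. Of the 50-base stretches in their transcripts, 9.58% in Fcgr3 also occurred in Fcgr2b, and 4.38% in Fcgr2b, 3.89% in Cd300ld, 3.18% in Cd300a and 2.29% in Cd300lf occurred in some other gene, against none in the other 5 genes. In addition, 155 exon bases of Fcgr2b overlapped the antisense gene Gm38204, and use of the strand in counting is not given in the sources used here.

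Promoter sequence is shown for Fcgr1, Fcgr4, Cd300a, Cd300lf and Cd300lb, because these genes moved most with LPS or had the widest gaps between the responses of the genotypes, and their windows lie mostly outside annotated exons. Each line holds the 250 bases before the RefSeq start (GRCm38.p6), shortened where an annotated exon begins, and reads 5′ to 3′ along the gene. The windows are chr3:96293970-96294219 (minus strand) for Fcgr1, chr1:171018676-171018919 (plus strand) for Fcgr4, chr11:114889791-114890040 (plus strand) for Cd300a, chr11:115133993-115134242 (minus strand) for Cd300lf and chr11:114934387-114934621 (minus strand) for Cd300lb. Capitals mark the motifs that were found.
Fcgr1: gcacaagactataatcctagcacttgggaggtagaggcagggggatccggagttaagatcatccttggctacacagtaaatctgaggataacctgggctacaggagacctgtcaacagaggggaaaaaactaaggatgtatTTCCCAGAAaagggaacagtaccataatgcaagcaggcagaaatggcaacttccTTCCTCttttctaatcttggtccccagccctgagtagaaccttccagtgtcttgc
Fcgr4: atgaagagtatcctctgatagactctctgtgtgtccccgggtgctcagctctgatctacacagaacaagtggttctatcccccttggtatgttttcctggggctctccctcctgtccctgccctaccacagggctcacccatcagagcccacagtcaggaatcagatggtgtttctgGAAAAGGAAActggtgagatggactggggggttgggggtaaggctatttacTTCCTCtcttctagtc
Cd300a: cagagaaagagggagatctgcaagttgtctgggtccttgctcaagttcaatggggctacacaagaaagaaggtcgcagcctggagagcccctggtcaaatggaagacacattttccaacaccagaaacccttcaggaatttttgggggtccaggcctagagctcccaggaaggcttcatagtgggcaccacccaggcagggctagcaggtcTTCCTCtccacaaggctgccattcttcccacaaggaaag
Cd300lf: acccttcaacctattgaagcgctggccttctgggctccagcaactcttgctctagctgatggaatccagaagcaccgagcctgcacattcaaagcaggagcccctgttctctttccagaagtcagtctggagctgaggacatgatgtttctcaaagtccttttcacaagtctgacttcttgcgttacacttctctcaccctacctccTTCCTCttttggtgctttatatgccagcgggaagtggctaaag
Cd300lb: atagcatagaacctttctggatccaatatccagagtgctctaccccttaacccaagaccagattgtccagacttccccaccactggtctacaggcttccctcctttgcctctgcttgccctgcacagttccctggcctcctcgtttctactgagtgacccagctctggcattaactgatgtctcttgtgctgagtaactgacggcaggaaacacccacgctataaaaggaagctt

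A handful of motifs was searched on both strands of the 250 bases. The core of the site of PU.1, the myeloid factor encoded by Spi1, spelled GAGGAA or in reverse TTCCTC, occurred in 7 of the 10 genes (Fcgr1, Fcgr3, Fcgr4, Fcrls, Cd300a, Cd300lf and Cd300ld), against 23.3% of 32851 RefSeq promoter windows of the same length. Fcgr3 had 2 windows, whereas that share is per window. An annotated exon begins at or before the first base of both Fcgr3 windows, and after 36 of the 250 bases in that of Fcrls. The interferon-stimulated response element (GAAA and GAAA parted by any 2 bases) occurred in Fcgr4 alone (2.98% of all windows). The interferon-gamma activated site TTCNNNGAA occurred in Fcgr1 alone (7.02%). The NF-kB letters (GGGA and TTCC parted by any 2 bases) occurred in Cd300ld alone (1.21%), where they overlap the GAGGAA match. The AP-1 letters TGANTCA were in none of the 10 windows (6.75%). A match is a stretch of letters and not a measured binding site.

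Library totals ranged from 56948593 to 167280149 counts, and levels are given in CPM, counts scaled to library size with TMM factors. Acat1 itself was 98.8 ± 15.6 CPM in unstimulated WT and 26.8 ± 1.82 CPM in unstimulated ACAT1 KO lines (SD, n = 3). After LPS it was 81.9 ± 15.5 and 19.1 ± 0.732 CPM (SD, n = 3), so the targeted transcript followed the labels in both states. All 10 macrophage markers examined were listed, whereas none of 6 mast cell or basophil markers was. Of 5 dendritic cell markers 3 were listed in both states, as was 1 each of 6 neutrophil, 5 B cell and 6 T or NK cell markers. The summed macrophage markers ran from 9136 to 10159.9 CPM in unstimulated WT and from 10442 to 11877 CPM in unstimulated ACAT1 KO lines, and from 8722 to 9102 and from 9199 to 10651 CPM after LPS. Most of each sum was Lyz2, with a mean of 6117 CPM in unstimulated WT lines. Without stimulation Adgre1 alone had a lower mean in ACAT1 KO lines, 42.7 against 74.0 CPM (edgeR adjusted p = 0.0368). The other macrophage markers had higher means, none at an adjusted p under 0.05. After LPS Adgre1 was at 162 CPM in ACAT1 KO and 157 CPM in WT lines (edgeR adjusted p = 0.610). Itgam (edgeR adjusted p = 0.0147), Cd14 (0.00736), Mrc1 (0.0349) and Spi1 (0.0240) were then higher in ACAT1 KO lines, where 5.93% of all genes were. The part of these markers in the results was not tested. The unstimulated libraries of WT lines 1 and 2 and ACAT1 KO line 2 stood apart, with 0.0398% to 0.0612% of counts on noncoding genes antisense to exons against 0.00904% to 0.0110% in the other 9. Results are therefore also given without these 3. In bulk RNA, fewer expressing cells and less RNA per cell cannot be told apart.

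The common gamma chain was the most abundant transcript per length, and Fcrls had the lowest mean in all 4 groups, although it overlapped with Cd300lf in stimulated WT lines (4.94 ± 0.357 against 4.98 ± 0.261 CPM per kilobase). In unstimulated WT lines Fcer1g reached 487 ± 12.5 CPM per kilobase of exon, followed by Fcgr3 at 176 ± 28.4 and Fcgr2b at 132 ± 17.9 CPM per kilobase (SD, n = 3), whose lines overlapped. Fcgr1 (46.9 ± 0.739 CPM per kilobase) and Fcgr4 (38.4 ± 4.48) came next and did not overlap. Levels of the CD300 receptors were lower. Cd300ld (18.5 ± 4.92 CPM per kilobase) and Cd300lb (18.0 ± 1.25) overlapped, Cd300a (15.1 ± 0.889) and Cd300lf (9.29 ± 0.874) followed, and Fcrls closed the order at 6.21 ± 0.679 CPM per kilobase. The order changed between groups. In unstimulated ACAT1 KO lines Fcgr1 (29.0 ± 1.14) and Fcgr4 (30.1 ± 3.49) overlapped. After LPS Fcgr4 lay above Fcgr1 in both genotypes, at 61.8 ± 8.09 against 44.0 ± 5.98 CPM per kilobase in WT and 46.5 ± 3.05 against 20.7 ± 2.86 in ACAT1 KO lines. After LPS Fcgr2b was second in the order in both genotypes, overlapping with Fcgr3 in WT lines but not in ACAT1 KO lines.

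**Figure D1:**
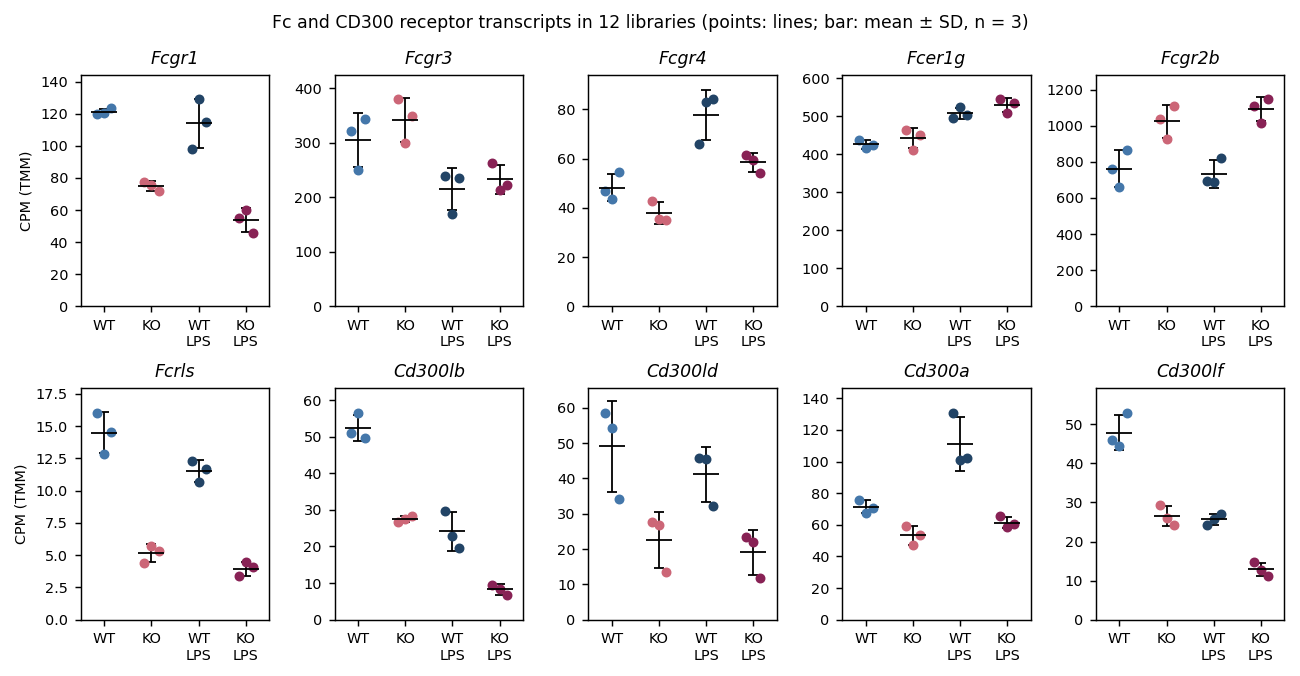
Each panel plots the TMM-scaled CPM (linear axis from 0) of a receptor gene in the 12 libraries, with points for the 3 lines of a group and a bar for the mean ± SD. All 3 ACAT1 KO lines lie below all 3 WT lines in both states for Fcgr1, Fcgr4, Fcrls and the 4 CD300 genes, and above them for Fcgr2b.

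The first question was how the receptors respond to LPS, and it was asked within each genotype. In WT cells 3 of the 10 genes rose (Fcgr4, Fcer1g and Cd300a) and 4 fell (Fcgr3, Fcrls, Cd300lb and Cd300lf). In ACAT1 KO cells 2 rose (Fcgr4 and Fcer1g) and 5 fell (Fcgr1, Fcgr3, Fcrls, Cd300lb and Cd300lf). LPS changed much of the transcriptome. Of 16535 genes tested, 29.3% rose and 28.0% fell in WT cells (57.4% in all), and 29.5% rose and 31.2% fell in ACAT1 KO cells (60.7% in all), so that the share of receptor genes past the threshold was not far from the background. The median log2 fold change of the 10 genes was -0.17 in WT and -0.31 in ACAT1 KO cells, beside -0.02 and -0.03 over all genes. The test was edgeR's quasi-likelihood test, two-sided, with Benjamini-Hochberg adjustment over all genes tested. Unstimulated and LPS libraries come from separate tables, so that stimulation and any difference between the sequencing of the 2 sets cannot be told apart. The labels do not say that replicates are separate cultures, and p-values measure the spread between these libraries.

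The largest responses were falls of the CD300 genes Cd300lb and Cd300lf. Cd300lb, an activating receptor that pairs with the adaptor encoded by Tyrobp, was 51.0, 56.6 and 49.7 CPM in unstimulated WT lines and 29.8, 22.9 and 19.6 CPM after LPS. The ACAT1 KO lines had 26.7, 27.6 and 28.2 CPM before and 9.60, 8.44 and 6.80 CPM after LPS. Every LPS library lay below every unstimulated library of its genotype. LPS changed it by a log2 fold change of -1.12 in WT (standard error 0.146, edgeR adjusted p = 3.68e-05) and -1.73 in ACAT1 KO cells (standard error 0.151, edgeR adjusted p = 1.03e-06), a fall of 2.18-fold and 3.33-fold as estimated by the fit.

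Cd300lf, an inhibitory receptor for phosphatidylserine and ceramide, was 46.0, 44.6 and 53.0 CPM in unstimulated WT lines and 24.3, 25.7 and 27.0 CPM after LPS. Among ACAT1 KO lines the values were 29.2, 25.9 and 24.3 CPM before and 14.7, 12.7 and 11.2 CPM after LPS. Here too the states did not overlap within a genotype. Its log2 fold change was -0.90 in WT (standard error 0.106, edgeR adjusted p = 1.51e-05) and -1.04 in ACAT1 KO cells (standard error 0.107, edgeR adjusted p = 4.29e-06). The activating and the inhibitory receptor thus fell together.

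Cd300a, the other inhibitory CD300 receptor, went the opposite way in WT cells. It was 76.0, 67.7 and 70.5 CPM in unstimulated WT lines and 131, 101 and 102 CPM after LPS. The 3 stimulated WT lines were above the 3 unstimulated ones, with line 1 the highest in both states. This was a log2 fold change of 0.64 (standard error 0.108, edgeR adjusted p = 2.89e-04). Cd300a in ACAT1 KO lines was 59.3, 47.5 and 53.3 CPM before and 65.3, 58.5 and 60.5 CPM after LPS. These ranges overlapped, and the log2 fold change was 0.20 (standard error 0.108, edgeR adjusted p = 0.121). The difference between the 2 responses was -0.44 on the log2 scale (standard error 0.152, edgeR adjusted p = 0.355), so the responses of the genotypes were not shown to differ. In the fit with the line as a block and a term for the libraries that stood apart, this difference was -0.37 and passed the threshold (edgeR adjusted p = 0.0370), and over all 21 alternatives the adjusted p ranged from 0.0370 to 0.582. In that same fit Cd300a also rose past the threshold in ACAT1 KO cells (0.16, edgeR adjusted p = 0.0284).

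Cd300ld, an activating receptor of the same cluster that signals through the common gamma chain, did not pass the threshold for LPS in either genotype. It was 58.6, 54.3 and 34.2 CPM in unstimulated WT lines and 45.7, 45.5 and 32.2 CPM after LPS. Values in ACAT1 KO lines were 27.6, 26.7 and 13.6 CPM before and 23.4, 22.0 and 11.8 CPM after LPS. The library numbered 3 was the lowest in each of the 4 groups, each LPS library lay below the unstimulated library of the same number, and the states overlapped in both genotypes. Its log2 fold change was -0.25 in WT (standard error 0.310, edgeR adjusted p = 0.517) and -0.25 in ACAT1 KO cells (standard error 0.312, edgeR adjusted p = 0.510). With the replicate number taken to mark a line, which the labels do not state, and the line as a block, Cd300ld passed as a fall in both (-0.23, edgeR adjusted p = 0.00826, and -0.24, edgeR adjusted p = 0.00731). With a further term for the libraries that stood apart, Cd300ld did not pass in WT cells (-0.14, edgeR adjusted p = 0.125). It still passed as a fall in ACAT1 KO cells (-0.195, edgeR adjusted p = 0.0151).

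The neighbours of the cluster give its setting. Of 12 protein-coding genes tested within 200 kb of a CD300 gene described here, 2 rose and 7 fell with LPS in WT cells, and as many in ACAT1 KO cells, where 29.3% and 28.0% of all genes rose and fell in WT and 29.5% and 31.2% in ACAT1 KO cells. Ttyh2 rose by a log2 fold change of 2.71 in WT cells (standard error 0.0898, edgeR adjusted p = 6.81e-10), and Tmem104 fell by 1.45 on the log2 scale (standard error 0.104, edgeR adjusted p = 2.40e-07). Cd300c2, between Cd300ld and Cd300lf, fell by 0.83 in WT (standard error 0.181, edgeR adjusted p = 0.00181) and by 0.84 in ACAT1 KO cells (standard error 0.181, edgeR adjusted p = 0.00160), on the log2 scale. All 5 tested genes beyond Cd300lf, from Slc9a3r1 to Fads6, fell in WT cells, and Cd300a was the only tested CD300 gene of the cluster past the threshold as a rise.

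**Figure D2:**
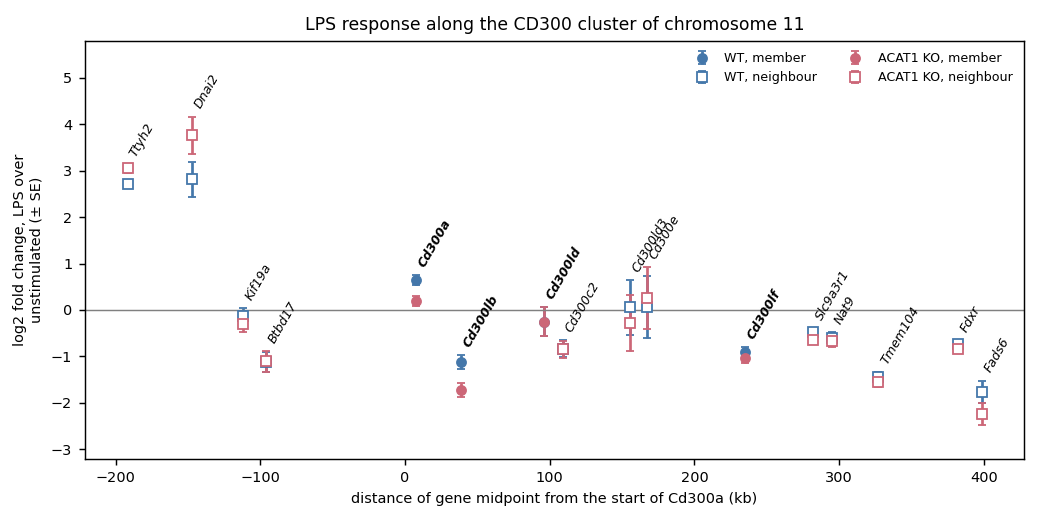
The log2 fold change with LPS (± SE, y axis) is plotted against the distance of each gene's midpoint from the start of Cd300a in kb (x axis), with filled circles for Cd300a, Cd300lb, Cd300ld and Cd300lf and open squares for tested protein-coding neighbours, WT in blue and ACAT1 KO in red. Cd300lb and Cd300lf lie below 0 in both genotypes, Cd300a lies at 0.64 in WT and 0.20 in ACAT1 KO cells, and 7 of the 12 neighbours are past the threshold below 0 in each genotype.

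Among the activating IgG receptors LPS moved Fcgr4 and Fcgr3 in opposite directions. Fcgr4, which binds IgG with intermediate affinity, was 46.7, 43.6 and 54.5 CPM in unstimulated WT lines and 66.0, 83.0 and 84.1 CPM after LPS. Fcgr4 in ACAT1 KO lines was 42.9, 35.4 and 35.2 CPM before and 61.5, 59.7 and 54.2 CPM after LPS. The states were separate in both genotypes. Fcgr4 rose by a log2 fold change of 0.69 in WT (standard error 0.116, edgeR adjusted p = 2.95e-04) and 0.63 in ACAT1 KO cells (standard error 0.116, edgeR adjusted p = 5.48e-04).

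Fcgr3, a low-affinity receptor, was 322, 249 and 344 CPM in unstimulated WT lines and 239.9, 169.9 and 236 CPM after LPS. ACAT1 KO lines gave 379, 299 and 348 CPM before and 262, 213 and 222 CPM after LPS. The library numbered 2 was lowest in all 4 groups, and the states did not overlap within a genotype, although unstimulated WT line 2 was close to stimulated WT line 1. On the log2 scale the change was -0.50 in WT (standard error 0.154, edgeR adjusted p = 0.0148) and -0.56 in ACAT1 KO cells (standard error 0.154, edgeR adjusted p = 0.00804). The WT call was lost without unstimulated WT line 3 (log2 fold change -0.41) or stimulated WT line 2 (-0.36).

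Fcgr1, the high-affinity IgG receptor, did not pass the threshold in WT cells and fell in ACAT1 KO cells. It was 119.8, 121 and 123 CPM in unstimulated WT lines and 98.0, 129 and 115 CPM after LPS. The ranges overlapped, and the log2 fold change was -0.09 (standard error 0.106, edgeR adjusted p = 0.501). In ACAT1 KO lines it was 77.7, 75.4 and 71.8 CPM before and 55.0, 60.3 and 45.7 CPM after LPS, without overlap. There Fcgr1 fell by 0.48 on the log2 scale (standard error 0.107, edgeR adjusted p = 0.00193). The difference between the responses was -0.39 (standard error 0.150, edgeR adjusted p = 0.424) and did not pass the threshold.

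The common gamma chain gene Fcer1g was 437, 416 and 425 CPM in unstimulated WT lines and 496, 523 and 504 CPM after LPS. In ACAT1 KO lines it was 464, 412 and 452 CPM before and 544, 509 and 535 CPM after LPS. Each stimulated group lay above its unstimulated group. The rise was small, with estimates on the log2 scale of 0.25 in WT (standard error 0.0595, edgeR adjusted p = 0.00312) and 0.26 in ACAT1 KO cells (standard error 0.0595, edgeR adjusted p = 0.00256). It depended on scaling. With upper-quartile normalization, which moved the median of all genes to -0.23 in WT and -0.17 in ACAT1 KO cells, it was 0.04 (edgeR adjusted p = 0.503) and 0.11 (edgeR adjusted p = 0.0957).

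The inhibitory receptor gene Fcgr2b was 762, 660.2 and 867 CPM in unstimulated WT lines and 692, 687 and 824 CPM after LPS. In ACAT1 KO lines it was 1038, 924 and 1109 CPM before and 1109.8, 1016 and 1146 CPM after LPS. Both pairs of groups overlapped. The log2 fold change was -0.06 in WT (standard error 0.110, edgeR adjusted p = 0.695) and 0.09 in ACAT1 KO cells (standard error 0.110, edgeR adjusted p = 0.494). Under upper-quartile normalization the WT value was -0.26 (edgeR adjusted p = 0.0483) and that of Fcgr1 in WT cells was -0.30 (edgeR adjusted p = 0.0227).

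Fcrls, a scavenger-type relative of the Fc receptors best known as a microglial gene, was the scarcest of the 10. It was 16.0, 12.9 and 14.6 CPM in unstimulated WT lines and 12.3, 10.7 and 11.6 CPM after LPS. Its values in ACAT1 KO lines were 4.38, 5.73 and 5.30 CPM before and 3.35, 4.45 and 4.05 CPM after LPS. The WT states were separate by a small margin and the ACAT1 KO states overlapped. LPS gave a log2 fold change of -0.33 in WT (standard error 0.131, edgeR adjusted p = 0.0487) and -0.38 in ACAT1 KO cells (standard error 0.134, edgeR adjusted p = 0.0289). These calls sat near the threshold and held in 13 and 15 of 21 alternatives. They were lost without the 3 libraries that stood apart (-0.37 and -0.28). Without those libraries the other 6 calls in each genotype remained past the threshold, although unstimulated WT cells then have 1 library, assumed to vary like the other groups.

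**Figure D3:**
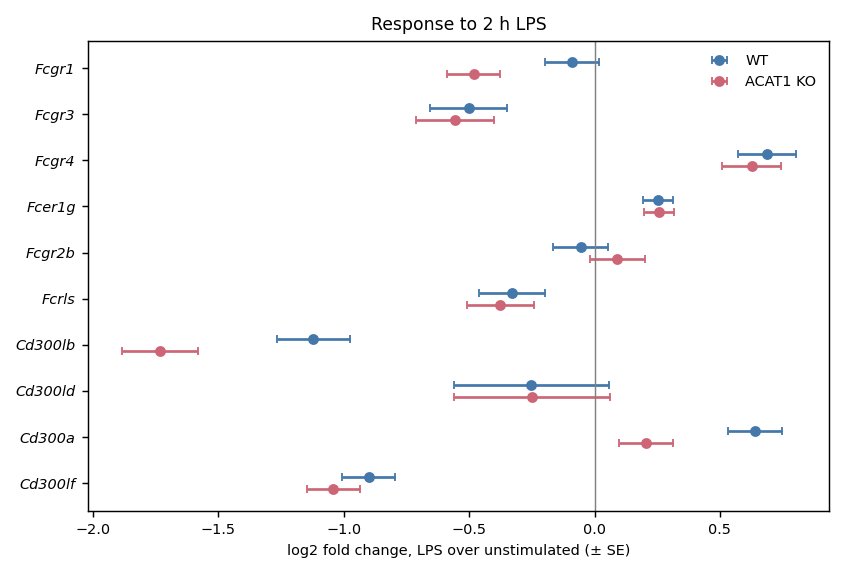
The log2 fold change of each receptor gene with 2 hours of LPS (x axis, ± SE) is shown for WT (blue) and ACAT1 KO cells (red). Cd300lb and Cd300lf lie farthest to the left at -1.12 and -0.90 in WT cells, Fcgr4 lies at 0.69 and 0.63, and Cd300a and Fcgr1 show the widest gaps between genotypes after Cd300lb.

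The interaction of genotype and LPS asked whether the responses differed. In the edgeR fit without a block none of the 10 genes passed the threshold, and none did with DESeq2 or limma-voom. Cd300a passed in the fit given above, with the line block and the term for the libraries that stood apart. After adjustment 31 of 16535 genes passed, 0.187%. Fcgr1 and Cd300a had an unadjusted p under 0.05, as did 8.92% of all genes. Cd300lb and Fcrls, whose values chose the set, are given without a test. Their estimates were -0.61 (standard error 0.207) and -0.05 (standard error 0.187). Beside Fcgr1 and Cd300a, the other 6 estimates ran from -0.14 for Cd300lf to 0.15 for Fcgr2b (edgeR adjusted p from 0.895 to 0.999).

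The balance of activating to inhibitory IgG receptor transcripts was summarised as the summed CPM per kilobase of Fcgr1, Fcgr3 and Fcgr4 divided by that of Fcgr2b. It was 2.04, 1.97 and 1.93 in unstimulated WT lines and 1.91, 1.80 and 1.74 after LPS. In ACAT1 KO lines it was 1.58, 1.44 and 1.34 before and 1.15, 1.10 and 0.954 after LPS. The stimulated lines were below the unstimulated lines in both genotypes, by 0.165 and 0.380 in the mean, and the exact two-sided permutation test gave p = 0.10 for each, the smallest that 3 against 3 lines allow. The ACAT1 KO lines were below the WT lines in both states, with 1.45 ± 0.120 against 1.98 ± 0.0565 unstimulated and 1.07 ± 0.104 against 1.82 ± 0.0889 after LPS (SD, n = 3). This gap between genotypes is a description and was not tested. The ratio depends on the exon lengths used and is one of transcripts, not of receptors at the surface.

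**Figure D4:**
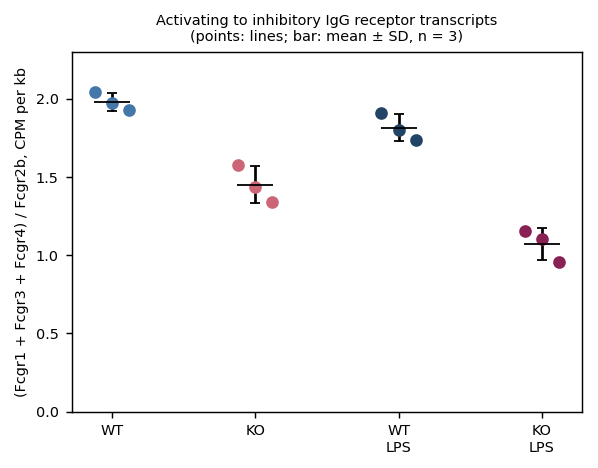
The y axis gives the ratio of summed Fcgr1, Fcgr3 and Fcgr4 to Fcgr2b (CPM per kilobase, no unit) in each library, with points for lines and a bar for the mean ± SD of 3 lines in each of the 4 groups. It falls from 1.98 in unstimulated WT to 1.07 in stimulated ACAT1 KO lines, and no ACAT1 KO line is above 1.58.

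Between genotypes the CD300 genes and Fcrls were lower and Fcgr2b was higher in ACAT1 KO lines. Cd300lb was 1.89-fold lower without stimulation and 2.87-fold lower after LPS, with log2 fold changes of -0.92 (standard error 0.0675) and -1.52 (standard error 0.173). Fcrls was 2.80-fold and 2.87-fold lower, with log2 fold changes of -1.49 (standard error 0.144) and -1.52 (standard error 0.120). These are the genes the choice rested on.

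The other CD300 genes were lower as well. Cd300lf had log2 fold changes of -0.84 (standard error 0.0973) and -0.98 (standard error 0.0998) without and with LPS, and Cd300ld had -1.11 (standard error 0.309) and -1.09 (standard error 0.245). The larger errors of Cd300ld go with its low values in the libraries numbered 3. Cd300a had -0.41 (standard error 0.0907) and -0.84 (standard error 0.105), and its stimulated ACAT1 KO lines stayed below even the unstimulated WT lines.

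The IgG receptors did not share a direction. Fcgr1 had log2 fold changes of -0.69 (standard error 0.0556) and -1.07 (standard error 0.123), and Fcgr4 had -0.34 (standard error 0.113) and -0.39 (standard error 0.0989). Fcgr2b was 1.35-fold higher without stimulation and 1.51-fold higher after LPS, with log2 fold changes of 0.43 (standard error 0.119) and 0.59 (standard error 0.0903). Fcgr3 (0.17 with standard error 0.140 and 0.13 with standard error 0.137) and Fcer1g (0.06 with standard error 0.0673 and 0.08 with standard error 0.0555) overlapped between genotypes in both states.

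In each state 7 of the 10 genes were lower and 1 was higher without overlap of the lines, where 12.7% of all genes lay lower and 13.1% higher without overlap in unstimulated cells, and 19.7% and 17.9% after LPS. As a further description, which includes the 2 genes chosen for this contrast, 4 genes were past the adjusted threshold without stimulation (Fcgr1, Fcrls, Cd300lb and Cd300lf, all lower), where 1.91% of all genes passed (1.17% lower, 0.742% higher), and 8 after LPS (7 lower and Fcgr2b higher), where 15.1% passed (9.12% lower, 5.93% higher). Nothing is read from these counts. That of 4 became 0 without ACAT1 KO line 3, 1 without WT line 2 and 2 without WT line 1. Without the 3 libraries that stood apart, only 1 unstimulated WT library remained, so that estimates alone are given. They were -0.73 for Fcgr1, -1.60 for Fcrls, -0.86 for Cd300lb and -0.99 for Cd300lf on the log2 scale. The median log2 fold change of the 10 genes was -0.55 without stimulation and -0.91 after LPS, beside 0.00 in both states over all genes.

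**Figure D5:**
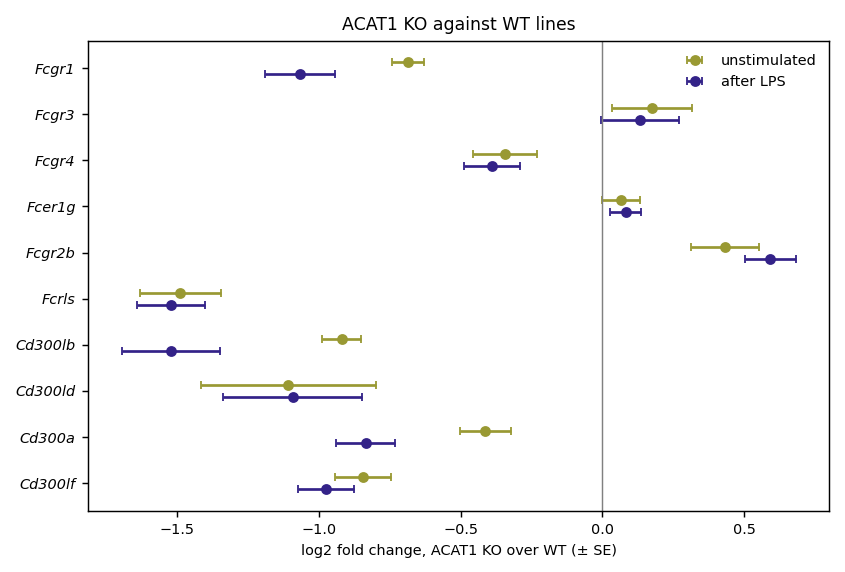
The log2 fold change of ACAT1 KO over WT lines (x axis, ± SE) is plotted for the 10 genes without stimulation (olive) and after LPS (dark blue). Fcrls, Cd300lb and Cd300ld lie farthest left, Fcgr3 and Fcer1g lie near 0, and Fcgr2b lies to the right at 0.43 and 0.59.

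Genes near the receptors were counted in the same comparison. Without stimulation 1 of 12 tested neighbours of the CD300 genes was past the threshold, Slc9a3r1, which was lower by 0.63 on the log2 scale (standard error 0.0683), and it was also the only such neighbour after LPS. None of 23 neighbours in the region from Fcgr2b to Fcer1g passed without stimulation, and 2 passed as lower after LPS, where Nr1i3 was not tested. Near Fcgr1, 1 of 12 neighbours passed without stimulation, Otud7b, at -0.92 on the log2 scale (standard error 0.0931). After LPS 4 were lower, and Sv2a, H2ac19 and H3c13 were not tested there. Near Fcrls 2 neighbours were tested, Fcrl1 and Cd5l. Neither passed without stimulation, and after LPS Cd5l was lower, with a mean of 0.266 CPM in WT and 0.0544 CPM in ACAT1 KO lines. In the same comparison 1.91% of all genes passed without stimulation and 15.1% after LPS.

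Of 20 further genes of the Fc and CD300 families, 9 were listed in both states and the other 11 in neither. In WT cells 2 rose and 3 fell with LPS, and the same numbers did so in ACAT1 KO cells, where 57.4% and 60.7% of all genes passed in either direction. Trim21, a cytosolic Fc receptor and ubiquitin ligase, rose most, by a log2 fold change of 3.17 in WT (standard error 0.111, edgeR adjusted p = 9.81e-10) and 3.44 in ACAT1 KO cells (standard error 0.112, edgeR adjusted p = 4.46e-10). Fcrlb rose and Fcrla fell, but both were scarce, at means of 0.691 and 0.311 CPM in unstimulated WT lines. The other genes that fell were Cd300c2 and Cd300lg, the latter named after its values were seen, by 0.45 in WT (standard error 0.110, edgeR adjusted p = 0.00374) and by 0.51 in ACAT1 KO cells (standard error 0.110, edgeR adjusted p = 0.00158). Between genotypes none of the 9 passed without stimulation and 1, Cd300lg, was lower after LPS.

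The adaptors, kinases and phosphatases that these receptors use were counted in the same way. Of 38 such genes, all tested, 13 rose and 17 fell in WT cells, where 29.3% and 28.0% of all genes did. In ACAT1 KO cells 12 rose and 17 fell, where 29.5% and 31.2% of all genes did. Src, a kinase that phosphorylates receptor tails, rose from 0.277 ± 0.0163 to 24.7 ± 5.59 CPM in WT lines (SD, n = 3), a log2 fold change of 6.48 (standard error 0.179, edgeR adjusted p = 2.42e-10). Pik3r5, a regulatory subunit of phosphoinositide 3-kinase, rose from 36.7 ± 6.32 to 525 ± 30.2 CPM (SD, n = 3), a log2 fold change of 3.84 (standard error 0.123, edgeR adjusted p = 5.62e-10). The adaptor gene Lcp2 rose by 1.45 (standard error 0.0909, edgeR adjusted p = 7.91e-08) and the inhibitory adaptor gene Dok2 fell by 1.32 (standard error 0.0708, edgeR adjusted p = 2.34e-08), on the log2 scale.

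The direct partners named above also moved. Syk rose from 65.0 ± 6.86 to 186 ± 30.4 CPM in WT lines (SD, n = 3), a log2 fold change of 1.52 (standard error 0.112, edgeR adjusted p = 2.96e-07). Tyrobp, the adaptor of Cd300lb, fell by 0.28 in WT (standard error 0.0815, edgeR adjusted p = 0.0113) and by 0.45 in ACAT1 KO cells (standard error 0.0816, edgeR adjusted p = 4.70e-04), on the log2 scale. On the same scale the inhibitory phosphatase genes Inpp5d and Ptpn6 fell in WT cells by 0.47 (standard error 0.0704, edgeR adjusted p = 1.10e-04) and 0.73 (standard error 0.108, edgeR adjusted p = 9.96e-05). These 4 were described because they act next to the receptors, after their values were known. No gene of the list passed the threshold for the interaction, and between genotypes none passed without stimulation, while 3 were higher and 8 lower after LPS, where 5.93% and 9.12% of all genes were.

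Levels across the 12 libraries were compared with those of 11960 genes by Pearson's r of log2 CPM, as a description, since the libraries fall into 4 groups that set most of the likeness. The genes most like Cd300lb were E2f6 (r = 0.984), Tsc22d3 (r = 0.984) and Zbtb1 (r = 0.983). Tsc22d3, the glucocorticoid-induced leucine zipper, had mean levels of 26.6, 13.9, 9.46 and 2.97 CPM in unstimulated WT, unstimulated ACAT1 KO, stimulated WT and stimulated ACAT1 KO lines, an order close to that of Cd300lb. The genes most like Fcrls were Itgb7 (r = 0.985), an integrin subunit, Acap1 (r = 0.982) and Kif21a (r = 0.972). Acap1 was 55.7 and 10.8 CPM in unstimulated WT and ACAT1 KO lines and 35.0 and 6.63 CPM after LPS, so that, as for Fcrls, the gap between genotypes was wider than that between states.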

How the data were processed

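RNA-seq of 12 libraries was used, grouped by the genotype and treatment in their labels. Per the paper and the submitters' processing notes, trimming was by Trimmomatic 0.33, alignment to GRCm38 by HISAT2 and quantification by StringTie. The counts deposited by the authors are raw whole numbers for each gene, in separate tables for the 2 states. The step that gave whole counts and its strand setting are not given in the sources used here. The tables also hold 12 columns of log2 values and the authors' fold changes and p-values, none of which was used. They list 17544 genes without stimulation and 17874 after LPS, once 59 and 57 repeated entries had been dropped. All listed genes reach 4 counts in 5 or more of a state's 6 libraries, so that a gene missing from a table may still be expressed.

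The counts were tested in R 4.3.3 with edgeR 4.0.16 (filterByExpr, TMM, quasi-likelihood test, adjusted p under 0.05). Genotypes were compared within each state over 16440 and 16483 genes. LPS responses and the interaction were fitted on all 12 libraries over 16535 genes. Lengths are union exon lengths of the GENCODE annotation of GRCm38. Promoters are from RefSeq (GRCm38.p6), where all 10 genes matched. At these depths the spread between lines limits precision more than counting does. The fits were also run on simulated counts, drawn without lines shared between states and without libraries that stood apart. That run does not bear on the effect of those features. Libraries of a group differed by more than sampling noise (chi-square over its degrees of freedom between 33.5 and 280), so none is a copy of another.

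The genes and lists were chosen with earlier results of these data known. Named were all 10 genes, Acat1, up to 4 genes of a list with the smallest p in the LPS response of WT cells, the 3 genes most like Cd300lb and Fcrls, and neighbours within 200 kb, of which some are given. Alternatives were DESeq2 1.42.0, limma-voom (limma 3.58.1), other scaling and filters, replicate blocks, a term for the libraries that stood apart, and each library left out in turn. Leaving out those 3 libraries together was chosen after seeing the data. It leaves 1 unstimulated WT library, so that counts of genes called without those libraries carry little weight.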

Additional observations from a re-analysis of the deposited data

How the results depend on the processing

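No value of the 10 genes past the threshold changed direction under any alternative run. Of 930 comparisons of a gene's value with an alternative, 872 kept their direction and side of the threshold, 37 lost the call, 16 gained it and 5 moved without a call. The count of receptor genes past the threshold between unstimulated genotypes, a description that includes the genes chosen for that contrast, was 8 with DESeq2 in place of 4, and 0 to 4 when each library was left out. Over all genes that comparison called 314 with edgeR, 1721 with DESeq2, 475 with at least 10 counts in every library, 664 with the term for the libraries that stood apart, 1353 in the fit of all 12 libraries, 66 without those 3 libraries and 7 to 522 with a library left out. Between stimulated genotypes 2481 genes were called, and 867 to 2245 with a library left out. With a library left out, the counts of receptor genes were 6 to 8 between stimulated genotypes, 5 to 7 for LPS in WT, 6 to 7 for LPS in ACAT1 KO cells and 0 for the interaction. The interaction over all genes gave 31 calls, 333 with DESeq2, 11 with limma-voom and 2 without the libraries that stood apart. Without the length correction 3 of the 10 genes kept their place in the order of levels in unstimulated WT lines. Upper-quartile scaling gave 3628 genes higher and 6681 lower with LPS in WT cells, where TMM gave 4850 and 4638, 3921 and 6560 in ACAT1 KO cells against 4871 and 5166, and 10 and 13 for the interaction against 8 and 23. In these cases the cause was not tested.

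The labels do not state that a replicate number marks a line in both states. Deviations of same-numbered libraries across states correlated from 0.0913 to 0.307 over 6 pairs, and 12 of 12 libraries correlated best with their own number, a hint from the data and not the design. With the line as a replicate block, 8 receptor genes passed for LPS in WT and 9 in ACAT1 KO cells, with Cd300ld (edgeR adjusted p = 0.00826 and 0.00731) and, in ACAT1 KO cells, Cd300a (0.0158) among them. The interaction then gave 0 receptor genes and 288 genes in all, and with the term for the libraries that stood apart added 1 receptor gene, Cd300a, and 457 genes. With the replicate number as a block between genotypes, 5 receptor genes passed without stimulation and 7 after LPS, and 151 genes in all without stimulation.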

Other observations

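Other paired receptors of myeloid cells, which like the CD300 family come in activating and inhibitory forms, were also counted. Of 40 such genes 34 were tested in all 12 libraries. In WT cells 4 rose, 11 fell and 19 did not pass, and in ACAT1 KO cells 5 rose and 14 fell, where 29.3% and 28.0% of all genes rose and fell in WT and 29.5% and 31.2% in ACAT1 KO cells. Clec4e, the C-type lectin Mincle that signals through the common gamma chain, rose from a mean of 406 to 2341 CPM in WT lines, a log2 fold change of 2.53 (standard error 0.111, edgeR adjusted p = 5.10e-09). Cd33 and the inhibitory receptor gene Sirpa fell by 0.97 (standard error 0.0833, edgeR adjusted p = 1.02e-06) and 0.85 (standard error 0.0877, edgeR adjusted p = 5.05e-06) on the log2 scale, and the inhibitory receptor gene Lilrb4a rose by 0.78 (standard error 0.113, edgeR adjusted p = 8.87e-05).

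Between genotypes 3 of these genes were higher and 1 was lower past the threshold in unstimulated ACAT1 KO cells, where 0.742% of all genes were higher and 1.17% lower. The higher ones were Sirpa, Lilra5 and Clec12a, and the lower one was Clec4a3, all named after their values were seen. Lilra5 was at a mean of 24.5 CPM in WT and 53.7 CPM in ACAT1 KO lines without stimulation (log2 fold change 1.14, standard error 0.169, edgeR adjusted p = 0.0390), and Clec4a3 was at 28.3 and 13.8 CPM (log2 fold change -1.03, standard error 0.175, edgeR adjusted p = 0.0448). After LPS 5 of 35 tested were higher and 3 lower in ACAT1 KO cells, where 5.93% of all genes were higher and 9.12% lower. Treml4, Sirpa, Pilra, Lilra5 and Clec12a were the higher ones, and Clec4a3, Pirb and the scarce Cd5l the lower ones. None of the paired receptor genes passed the threshold for the interaction with edgeR.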
